A study of Mus musculus with 22 samples.

Results

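Spinal cord injury was followed here through a difference measured inside each animal, between RNA bound to tagged astrocyte ribosomes and the RNA left over from the same homogenate. For every gene the log2 level in the hemagglutinin immunoprecipitate (HA IP) minus the log2 level in the flow-through of the same animal was taken, and this fraction difference was compared between 4 injured and 4 uninjured wild-type mice. These 8 animals gave 16 of the 22 libraries of the series, 1 HA IP and 1 flow-through library each, out of 11 animals in all. The pairs were chosen from the labels by genotype, condition, fraction and animal number. No measured value entered this rule, though earlier results of these data were known when it was set.

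All mice were young adult females of the line mGFAP-Cre-RiboTag. The uninjured animals, numbered 42, 79, 65 and 154, were matched to the others by sex and age. The injured animals, numbered 9935, 9874, 9843 and 9596, had a severe crush at thoracic level 10, and the central 3 mm of the lesion was taken 14 days later. The remaining 3 animals also carried STAT3-LoxP and were all injured, so they enter only a few side-by-side values. The tissue was spinal cord in every case.

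Astrocytes are glial cells that take up glutamate and potassium, move water at blood vessels and supply lipids, and after injury they become reactive and form a border around the lesion. RiboTag is an allele of the ribosomal protein gene Rpl22 that switches to an HA-tagged form in cells with Cre activity, so that antibody to HA pulls down ribosomes of those cells with their RNA. A fraction difference above 0 therefore marks RNA enriched on the tagged ribosomes, and a value below 0 marks RNA enriched in the unbound remainder. Cre follows the mouse Gfap promoter, so a cell that switches this promoter on is tagged whatever its type. The flow-through keeps any astrocyte RNA that was not bound. In bulk samples of this kind, fewer cells of a type and less RNA per cell cannot be told apart.

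The label of the HA IP was checked against 30 astrocyte genes of the resting state. In uninjured animals 29 of them were called higher in HA IP than in flow-through, with a median fraction difference of 3.90, and 1, Hapln1, was called lower (25.1% and 23.2% of all genes tested). In injured animals 24 of the 30 were still called higher and none lower (10.8% and 9.44% of all genes tested), with a median of 2.14. Markers of microglia and macrophages were called lower in HA IP for 20 of 20 genes in both conditions. Neuronal markers were called lower for 15 of 16 genes in uninjured and 13 of 16 in injured animals. Not every list of other cells was depleted. In uninjured animals 8 of 10 ependymal, 6 of 10 oligodendrocyte precursor and 10 of 21 lipid-handling phagocyte genes were called higher in HA IP. In injured animals these counts were 2, 8 and 0. Called lower were 0, 1 and 5 of them in uninjured and 0, 0 and 15 in injured animals. The injured libraries are shallower, so counts of calls before and after injury were not made at equal depth. The fitted median fraction difference of the ependymal list was 1.95 in uninjured and 4.91 in injured animals, on few injured flow-through counts. By animal its median ran from 1.7 to 2.24 in uninjured and from 0 to 4.03 in injured animals.

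Sequencing depth moved with injury. Total counts per library ran from 3898755 to 59337089, but the ribosomal RNA precursor row Rn45s held 9.49% to 39.7% of counts in the uninjured libraries and 89.0% to 96.2% in the injured ones. Outside the ribosomal rows the uninjured HA IP libraries kept 26934866 to 51571785 counts, the uninjured flow-through 2858044 to 10140612, the injured HA IP 620265 to 2691494 and the injured flow-through 91626 to 615302. Levels are given as CPM, counts relative to a library size scaled by TMM, a method that sets the bulk of genes equal. On this scale a single count was worth 0.287 to 1.62 CPM in the injured flow-through libraries and 0.0156 to 0.0543 CPM in the uninjured ones. The fraction difference of Rn45s itself was -0.12 in uninjured and 0.53 in injured animals, and its injury change of 0.65 ± 0.22 (SE) was not called (adjusted p = 0.0711). Injury and the ribosomal RNA share cannot be told apart in this design. Its part in the results was not tested, apart from the fits on thinned counts given beside them.

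The injury change of the fraction difference was called for 1744 of 14401 genes tested (12.1%), by edgeR's quasi-likelihood test with the animal as a block and a Benjamini-Hochberg adjusted p under 0.05. Of these, 740 (5.14% of all genes tested) moved toward HA IP and 1004 (6.97%) toward flow-through. The median change over all genes was 0.0022 on the log2 scale, and 3835 genes had an unadjusted p under 0.05. The number of calls was 913, 886 or 962 without uninjured animal 79, 65 or 154. With all 22 libraries in the fit 1934 genes were called, 59.9% of them toward HA IP against 42.4% in the 16 libraries, with the median of all genes shifted to 0.22. The share toward HA IP was 54.6% of 1373 calls without animal 42, with the median at 0.19. When every library was thinned to 91626 counts outside the ribosomal rows, 3049 genes remained for testing and 445 were called. Of the 769 earlier calls among them, 768 kept their sign and 408 were called again. A low count was common among the calls, since 748 of the 1744 genes had a median under 10 counts over the 4 injured flow-through libraries.

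The commonest pattern in each direction was the loss of a called separation between the fractions. Among the 1004 genes that moved toward flow-through, 567 (56.5%) were called higher in HA IP in uninjured animals and had no called difference after injury, 121 (12.1%) were called higher in HA IP in both conditions, and 102 (10.2%) went from higher in HA IP to higher in flow-through. A further 177 (17.6%) had no called difference before and were called higher in flow-through after injury. Among the 740 genes that moved toward HA IP, 317 (42.8%) were called higher in flow-through in uninjured animals and had no called difference after injury, 216 (29.2%) had no called difference before and became higher in HA IP, and 137 (18.5%) changed from higher in flow-through to higher in HA IP. Over all genes tested, the uninjured fractions differed for 6950 (48.3%) and the injured fractions for 2911 (20.2%). The injured libraries are also the shallower ones, so these 2 counts were not made at equal depth. On counts thinned to equal depth they were 1393 and 962, among 3049 genes tested. With animal 9935 left out and the rest thinned less they were 3051 and 1693, among 7662 genes tested.

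**Figure D1:**
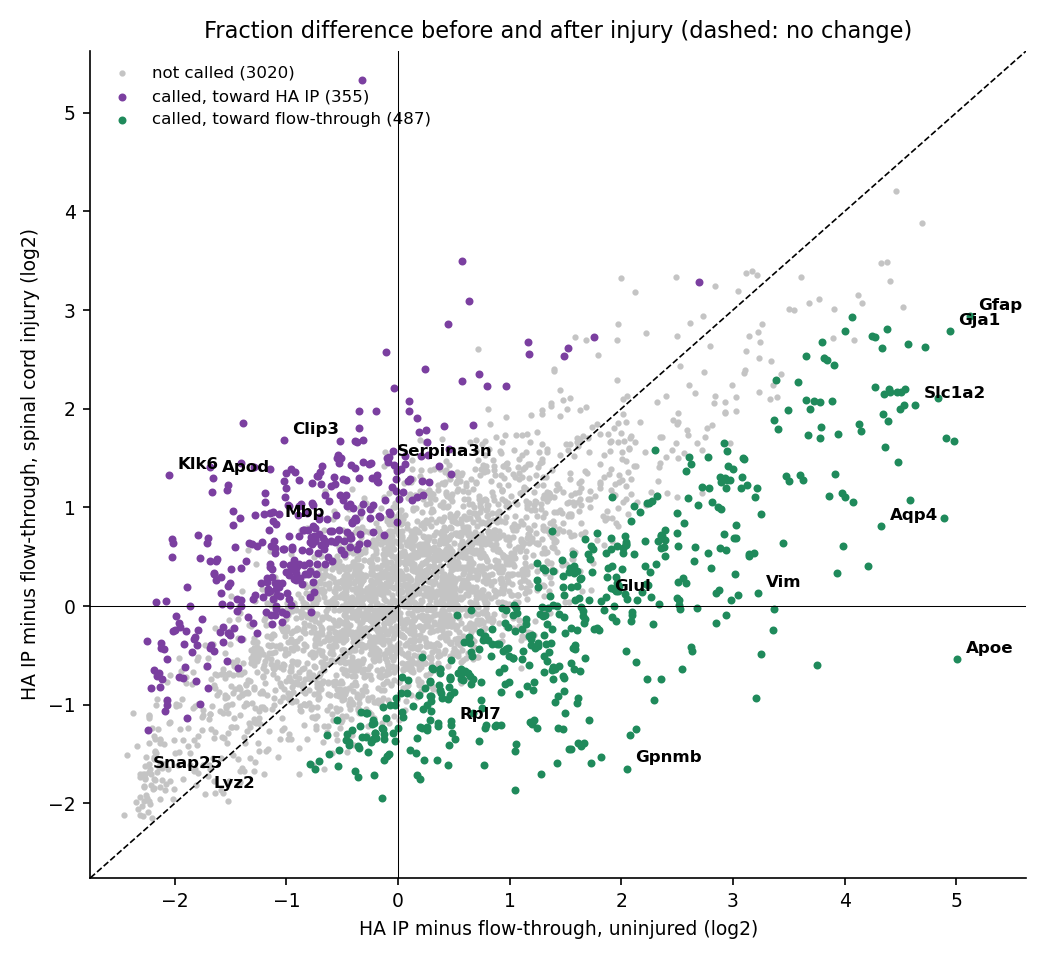
Each point is 1 of 3862 genes with a mean log2 CPM of at least 3; the x axis is the fraction difference (HA IP minus flow-through, log2) in uninjured animals, the y axis the same in injured animals, and the dashed line marks no change. The 487 genes called toward flow-through (green) lie below the line, with Apoe at x = 5.01 and y = -0.54, and the 355 called toward HA IP (purple) lie above it.

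Each change was also read as a pair of injury effects, injured against uninjured within HA IP and within flow-through, fitted without the animal block. Of the genes that moved toward flow-through, 403 (40.1%) rose with injury in flow-through alone, 231 (23%) fell in HA IP alone and 151 (15%) rose in both. Of those that moved toward HA IP, 299 (40.4%) fell in flow-through alone and 224 (30.3%) rose in HA IP alone. Over all 14401 genes, injury effects were called for 4242 (29.5%) in HA IP and 3879 (26.9%) in flow-through. A shared rise was called for 982 genes and a shared fall for 1122, of which 168 and 41 also had a called change of the fraction difference. Only 61 genes were called in both fractions with opposite signs.

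The resting astrocyte genes moved toward flow-through. Of the 30 tested, 22 were called lower and none higher, against 6.97% and 5.14% of all genes tested, with a median change of -1.71. In HA IP 22 of them fell with injury (17.7% of all genes tested fell there), and in flow-through 10 rose and 4 fell (12.6% and 14.3% of all genes). The median fraction difference of the list ran from 3.79 to 3.97 in the 4 uninjured animals and from 1.56 to 2.13 in the 4 injured animals, with no overlap. The count of 22 became 14 without uninjured animal 79 or 65 and 13 without the replicate block.

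Aqp4, the water channel of astrocyte end-feet, lost most of its separation. Its level in HA IP was 618, 402, 501 and 448 CPM in uninjured animals 42, 79, 65 and 154, and 252, 249, 219 and 250 CPM in injured animals 9935, 9874, 9843 and 9596. In flow-through, taken in the same order of animals, it was 32.3, 24.5, 20.7 and 20.8 CPM in the uninjured and 125, 150, 105 and 182 CPM in the injured animals. Every injured HA IP library was below every uninjured one, and every injured flow-through library was above every uninjured one. The fraction difference was 4.03 to 4.6 before and 0.46 to 1.06 after injury, a change of -3.52 ± 0.22 (SE, adjusted p = 1.6e-06).

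The main glutamate transporters of astrocytes also moved toward flow-through. Slc1a2 (GLT-1) had pair differences of 4.25 to 5.01 in uninjured and 1.77 to 2.22 in injured animals, a change of -2.59 ± 0.20 (adjusted p = 1.28e-05). Its HA IP level was 529 to 2570 CPM in the uninjured animals, highest in animal 42, and 452 to 622 CPM in the injured. Slc1a3 (GLAST) changed by -3.80 ± 0.45 (adjusted p = 0.000164), and its fraction difference after injury, 0.40, was not called (adjusted p = 0.444). Its HA IP level was 75.9 ± 11.7 CPM in uninjured and 11.9 ± 6.2 CPM in injured animals (SD, n = 4), while injured flow-through held only 3 to 46 counts per library. Another transporter, Slc1a1 (EAAC1), which is mostly neuronal, moved the other way by 3.10 ± 0.41 (adjusted p = 0.000384). It rose by 1.59 in HA IP and fell by 1.71 in flow-through.

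Glul, glutamine synthetase, went from pair differences of 1.67 to 1.97 to values of -0.01 to 0.28, so that after injury both fractions of an animal held nearly the same level. Its change was -1.77 ± 0.17 (adjusted p = 3.96e-05), with a fall of 0.80 in HA IP and a rise of 0.95 in flow-through. Gja1, the main gap junction connexin of astrocytes, kept a clear separation. It fell by 2.21 in HA IP, its flow-through effect of -0.18 was not called (adjusted p = 0.72), and its pair differences were 4.64 to 5.24 before and 2.21 to 3.76 after injury. Aldh1l1, a metabolic enzyme used widely to mark astrocytes, had a change of -2.35 (adjusted p = 0.0244). Its call was lost without uninjured animal 79, 65 or 154 or injured animal 9843 or 9596 (adjusted p = 0.0548 to 0.107). The same held without the replicate block (adjusted p = 0.0562), on the thinned counts (0.0695) and by limma on the pair differences (0.19). Its injured and uninjured pair differences overlapped.

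**Figure D2:**
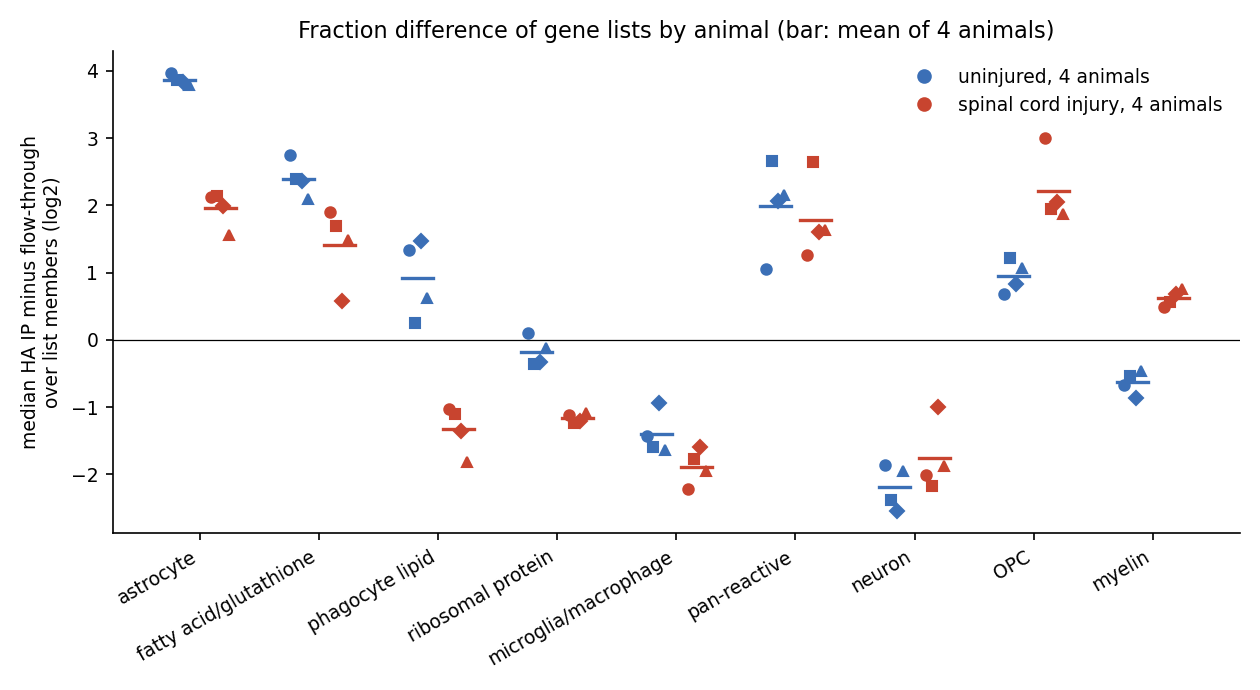
Median fraction difference (HA IP minus flow-through, log2) over the tested members of 9 gene lists, with 1 symbol per animal, uninjured in blue and injured in red, and a bar at the mean of the 4 animals. The uninjured and injured animals do not overlap for the astrocyte, fatty acid and glutathione, phagocyte lipid, ribosomal protein, OPC (oligodendrocyte precursor) and myelin lists, and they overlap for the microglia, pan-reactive and neuron lists.

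Genes of reactive astrocytes rose with injury in both fractions and split in how the fractions compared. Of 15 pan-reactive genes tested, 11 rose in HA IP and 10 in flow-through, against 11.8% and 12.6% of all genes tested, with median injury effects of 3.61 and 3.12. For the fraction difference 4 were called toward HA IP (Serpina3n, Lcn2, S1pr3 and Hspb1) and 4 toward flow-through (Gfap, Vim, Cd44 and Cxcl10), against 5.14% and 6.97% of all genes, and the list median changed by -0.29. Without the replicate block these counts were 1 and 3, and without animal 154 they were 2 and 3.

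Gfap (chr11:102887336-102900912, minus strand) encodes an intermediate filament protein, and its promoter drives the Cre that switches the tag on. Gene positions here are those of the GENCODE annotation of GRCm38, whose gene starts can differ from the RefSeq starts used for promoters below. Gfap rose in HA IP from 734, 977, 1060 and 710 CPM in animals 42, 79, 65 and 154 to 3000, 2450, 1770 and 1740 CPM in animals 9935, 9874, 9843 and 9596. In flow-through it went from 21.7, 28.7, 29.1 and 20.4 CPM to 321, 251, 265 and 301 CPM in the same order. Neither fraction showed overlap between conditions, and HA IP stayed above flow-through in all 8 animals. The rise was 1.36 on the log2 scale in HA IP and 3.51 in flow-through, and the fraction difference changed by -2.18 ± 0.19 (adjusted p = 1.7e-05). Vim, another intermediate filament gene of reactive astrocytes and many mesenchymal and immune cells, rose by 2.98 in HA IP and 5.94 in flow-through. Its pair differences were 2.59 to 4.85 before and -0.29 to 0.95 after injury, with animal 42 the highest and a change of -3.09 ± 0.46 (adjusted p = 0.00082).

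Serpina3n (chr12:104406729-104414329, plus strand), a secreted protease inhibitor, did the reverse. Its HA IP level was 29.5 to 56.3 CPM in uninjured and 529, 845, 510 and 1010 CPM in injured animals 9935, 9874, 9843 and 9596. Its flow-through level was 38.2 to 67.0 CPM in uninjured and 222, 246, 230 and 329 CPM in the injured animals in that order. The fractions were close in uninjured animals, with pair differences of -0.37 to 0.29, and HA IP was the higher in each of the 4 injured ones, at 1.15 to 1.78. The change was 1.55 ± 0.22 (adjusted p = 0.000596). Serpina3n lies in a cluster of near-identical paralogs, and how shared reads were counted is not given in the sources used here.

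Lcn2, the iron-siderophore carrier lipocalin, was close to absent in uninjured animals, with 21 counts in all 4 HA IP libraries and 18 in all 4 flow-through libraries, those 18 all from animal 154. After injury the HA IP libraries held 8 to 163 counts and the flow-through libraries 4 counts together. Its called change of 5.58 (adjusted p = 0.00641) became 2.06 without animal 154 (adjusted p = 0.937). Timp1, an inhibitor of matrix proteases, had a change of 1.18 that was not called (adjusted p = 0.541). All 70 of its uninjured flow-through counts came from animal 42, while its injured pair differences were 0.86 to 3.46. Cxcl10, a chemokine, was called at -3.13, and leaving out uninjured animal 65 or 154 ended the call (adjusted p = 0.0546 and 0.0584). It was not called without the replicate block (adjusted p = 0.3), by limma on the pair differences (-1.86, adjusted p = 0.139) or on counts thinned without animal 9935 (adjusted p = 0.249).

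Cytokine signals reach reactive astrocytes through STAT3, a transcription factor that is phosphorylated by JAK kinases bound to receptors of the interleukin-6 family and raises its own inhibitor Socs3. Of 20 genes fixed as its responses, 11 rose in HA IP and 13 in flow-through (11.8% and 12.6% of all genes did), with medians of 1.73 and 2.53. For the fraction difference 1 (5%, against 6.97% of all genes) was called toward flow-through and 0 toward HA IP, and the first count was 0 without animal 79, 65 or 154. Stat3 rose by 1.47 in HA IP and 1.27 in flow-through, with a change of the fraction difference of 0.14 ± 0.43 (95% confidence interval -0.77 to 1.06, adjusted p = 0.904). Socs3 rose by 4.57 in HA IP and 3.47 in flow-through, and its change of 1.36 ± 0.92 was not called (adjusted p = 0.38). Its injured flow-through libraries held 1 to 3 counts each.

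The promoters of 3 of these genes are shown because their fraction differences went different ways: no called change for Socs3, toward HA IP for Serpina3n and toward flow-through for Vim. Each is 250 bases before the start in the RefSeq table of GRCm38.p6, written 5′ to 3′ on the gene's strand. Capitals mark the palindrome TTCNNNGAA, the letters usually given for STAT binding, which reads the same on both strands. Socs3 is chr11:117969367-117969616 on the minus strand, with the palindrome starting at position -154 from the start, Serpina3n is chr12:104406458-104406707 on the plus strand, and Vim is chr2:13574061-13574310 on the plus strand.
Socs3: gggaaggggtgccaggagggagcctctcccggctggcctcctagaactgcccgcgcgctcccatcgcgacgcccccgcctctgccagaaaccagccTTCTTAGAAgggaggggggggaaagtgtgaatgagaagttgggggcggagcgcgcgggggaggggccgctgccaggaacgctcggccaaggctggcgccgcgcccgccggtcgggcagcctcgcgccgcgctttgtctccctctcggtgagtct
Serpina3n: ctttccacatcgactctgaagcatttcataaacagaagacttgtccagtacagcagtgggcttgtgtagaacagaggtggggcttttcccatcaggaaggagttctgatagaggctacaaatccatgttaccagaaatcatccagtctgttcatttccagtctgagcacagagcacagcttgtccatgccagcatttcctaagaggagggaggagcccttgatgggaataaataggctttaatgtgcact
Vim: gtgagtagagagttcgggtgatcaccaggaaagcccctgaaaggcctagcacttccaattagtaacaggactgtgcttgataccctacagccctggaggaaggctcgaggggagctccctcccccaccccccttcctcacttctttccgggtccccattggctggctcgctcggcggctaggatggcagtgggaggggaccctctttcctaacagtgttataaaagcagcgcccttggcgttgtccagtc
Over the pan-reactive and STAT3 response lists, 0 of 4 genes called toward HA IP and 0 of 4 called toward flow-through with a promoter in the table held the palindrome in this window, against 5 of 23 tested genes that were not called (21.7%) and 2197 of 27025 genes in the table (8.13%). A match is a run of letters and not a measured site, and its lack says only that the letters are not in this window.

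Further sets of reactive genes are named for neuroinflammatory (A1) and ischaemic (A2) astrocytes. Of 12 tested A1 genes 9 rose in HA IP and 10 in flow-through (11.8% and 12.6% of all genes did), and 4 (C3, Ggta1, Psmb8 and H2-D1) were called toward flow-through (33.3%, against 6.97% of all genes). The Ggta1 call was lost without uninjured animal 42, 79 or 154 or injured animal 9935, 9874 or 9596, by limma and without the replicate block (adjusted p = 0.0556 to 0.147). C3, the central complement protein, had 33.3 to 46.8 CPM in uninjured HA IP and 25.2 to 78.1 CPM in injured HA IP, and its injury effect there of 0.13 was not called (adjusted p = 0.82). In flow-through it rose from 1.31 to 2.92 CPM to 5.17 to 18.6 CPM, so its fraction difference changed by -2.51 ± 0.38 (adjusted p = 0.000931). Of 8 tested A2 genes 4 rose and 1 fell in HA IP (11.8% and 17.7% of all genes did). In flow-through 5 rose and 1 fell (12.6% and 14.3% of all genes). Of these Cd109 and Emp1 were called toward flow-through (25%, against 6.97% of all genes). Ptx3 was called toward HA IP (12.5%, against 5.14%). The injured and uninjured pair differences overlapped for both Cd109 and Emp1. The Emp1 call was lost by limma (-2.82, adjusted p = 0.388) and without injured animal 9843 (-3.11, adjusted p = 0.178) or uninjured animal 79, 65 or 154. The Cd109 call was lost by limma (-1.34, adjusted p = 0.64) and without the replicate block (adjusted p = 0.0706). Injured flow-through held 1 count of Ptx3 in all, so no fold is given.

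**Figure D3:**
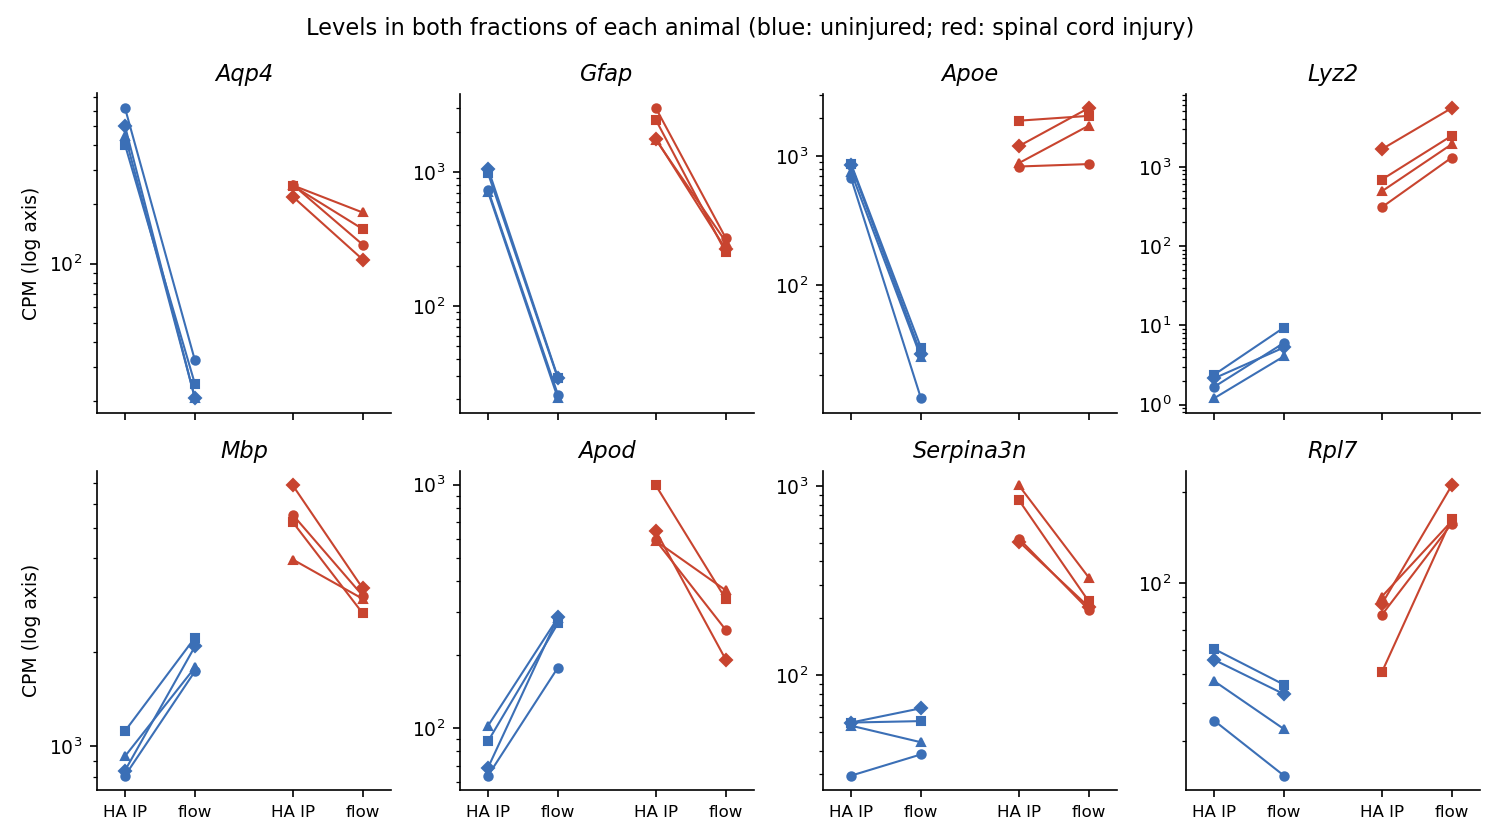
Level in CPM (log axis) of 8 genes in the HA IP and flow-through library of each animal, a line joining the fractions of 1 animal, uninjured in blue and injured in red. The Aqp4, Gfap and Apoe lines drop steeply in uninjured animals, the Lyz2 lines climb in both conditions, and the Mbp, Apod and Rpl7 lines turn over.

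Genes of lipid-handling phagocytes had the lowest median change of all lists tested. This list holds genes that foamy macrophages and disease-associated microglia switch on to bind, move and store lipid, and resting astrocytes also express several of them. Of 21 tested, 10 moved toward flow-through and none toward HA IP (6.97% and 5.14% of all genes tested), with a median change of -2.50. With injury 20 of the 21 rose in flow-through and 17 in HA IP, with medians of 6.63 and 4.88. Of all genes tested 12.6% and 11.8% rose there. The list median ran from 0.25 to 1.47 in uninjured and from -1.82 to -1.03 in injured animals.

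Apoe (chr7:19696109-19699188, minus strand) encodes the main lipid carrier made by astrocytes. It had 678, 875, 853 and 757 CPM in HA IP of uninjured animals 42, 79, 65 and 154. In injured animals 9935, 9874, 9843 and 9596 it had 834, 1890, 1200 and 886 CPM there. In flow-through it was 13.3, 32.9, 29.3 and 27.6 CPM before and 871, 2060, 2370 and 1730 CPM after injury. The HA IP libraries overlapped between conditions and the flow-through libraries were far apart. Its injury effect was 0.60 in HA IP, which was not called (adjusted p = 0.14), and 6.10 in flow-through (adjusted p = 1.68e-10). The fraction difference changed by -5.55 ± 0.28 (adjusted p = 2.88e-07), from 4.73 to 5.67 in the 4 uninjured pairs to -0.99 to -0.06 in the 4 injured pairs.

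Lpl, lipoprotein lipase, changed by -5.81 ± 0.47 (adjusted p = 1.3e-05). It rose by 1.55 in HA IP and 7.32 in flow-through, where the uninjured libraries held 2 to 7 counts and the injured ones 10 to 74. Axl, a receptor for dying cells, changed by -4.35 ± 0.36 (adjusted p = 1.3e-05) with no called injury effect in HA IP (0.38, adjusted p = 0.307) and a rise of 4.63 in flow-through. Gpnmb, a glycoprotein of foamy macrophages, rose by 6.46 in HA IP and 10.16 in flow-through. Its pair differences of 0.93 to 2.93 before and -1.88 to -1.51 after injury gave a change of -3.70 ± 0.37 (adjusted p = 5.3e-05). The call for Gpnmb was lost on the thinned counts (adjusted p = 0.109), as was that of Lgals3, a galectin of phagocytes (-5.06, adjusted p = 0.000204; 1 when thinned).

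The microglia and macrophage markers rose in both fractions. Of 20 tested, 17 rose in HA IP and 18 in flow-through (11.8% and 12.6% of all genes did), with medians of 3.51 and 3.89. For the fraction difference 17 of the 20 estimates were below 0, with a median change of -0.37. In 4 of the 20 the injured pair differences all lay below the uninjured ones, which was so for 9.3% of all genes. The change was called toward flow-through for 1 of them (5%, against 6.97% of all genes), or 0 without uninjured animal 42 or 65, and whether the effects were equal in both fractions was not tested. The summed level of the 20 markers was 40.7 to 93.1 CPM in uninjured HA IP and 590 to 1425 CPM in injured HA IP. In flow-through it was 107 to 197 and 2268 to 4038 CPM. Lyz2, the lysozyme of myeloid cells, had 1.2 to 2.38 CPM in uninjured and 309, 690, 1670 and 491 CPM in injured HA IP of animals 9935, 9874, 9843 and 9596, and 4.07 to 9.38 CPM and 1310, 2470, 5520 and 1930 CPM in flow-through. Its rise was 8.74 in HA IP and 8.83 in flow-through, and the change of the fraction difference was -0.17 ± 0.18 (95% confidence interval -0.565 to 0.216, adjusted p = 0.601), or 0.05 with all 22 libraries. The injured pair differences of Lyz2, -2.09 to -1.72, overlapped those of Gpnmb. C1qc, a complement component of microglia, and Laptm5, a lysosomal protein of blood-derived cells, changed by -0.28 and -0.32, neither of them called (adjusted p = 0.444 and 0.466). The iron store gene Ftl1 (-0.26, adjusted p = 0.456) was not called either.
The part of these myeloid cells in the other results was not tested.

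Immune response genes other than the myeloid markers rose in both fractions as well. Of 15 interferon response genes tested, 13 rose in HA IP and 14 in flow-through (11.8% and 12.6% of all genes did), and 3, among them Rsad2 and Bst2, moved toward flow-through (20%, against 6.97% of all genes). The call of Bst2, a membrane protein that tethers virus particles, was lost on the thinned counts (-0.14, adjusted p = 0.969) and on those thinned without animal 9935 (-2.70, adjusted p = 0.0616). Rsad2, an antiviral enzyme, changed by -4.06 ± 0.66 (adjusted p = 0.00159) on injured flow-through counts of 2 to 24. Of 13 antigen presentation genes 11 rose in HA IP and 12 in flow-through, and 4 (30.8%: H2-K1, H2-D1, B2m and Tap1) moved toward flow-through. The Tap1 call was lost without uninjured animal 65 or 154 or injured animal 9596, by limma and without the replicate block. It was also lost on counts thinned without animal 9935 (adjusted p = 0.062 to 0.499 over these alternatives). H2-K1, a class I heavy chain, had pair differences of 2.48 to 4.84 before and -1.32 to -0.64 after injury, a change of -4.15 ± 0.44 (adjusted p = 8.37e-05). Its HA IP level was 22.2 to 22.7 CPM in the 4 uninjured animals and 49.5 to 83.1 CPM in the injured, and its flow-through level 0.750 to 3.96 and 77.4 to 164 CPM. H2-K1 and H2-D1 are close paralogs, so the split of reads between them is uncertain. Of 14 chemokines and cytokines 3 (21.4%: Cxcl10, Cxcl16 and Il33) and of 10 complement genes 3 (30%: C2, C3 and C4b) moved toward flow-through, with Cd59a, a complement inhibitor, called toward HA IP. The Cxcl16 call was lost on the thinned counts (-0.55, adjusted p = 0.756) and on those thinned without animal 9935 (adjusted p = 0.0553). That of Cd59a was lost without uninjured animal 79, 65 or 154, by limma and without the replicate block (adjusted p = 0.0653 to 0.264). The 2 flow-through counts of C2 both came from injured animal 9935, so no fold is given for it.

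Myelin genes moved toward HA IP. These genes encode the proteins of the sheath that oligodendrocytes wrap around axons. Before injury 10 of the 14 tested were called lower in HA IP than in flow-through (23.2% of all genes tested were). After injury 8 were called higher in HA IP and 1 lower (10.8% and 9.44% of all genes tested). For the change itself 12 of 14 were called toward HA IP and none toward flow-through, against 5.14% and 6.97% of all genes tested, with a median of 1.35, and Aspa and Opalin were not called. In 10 of the 14 the injured pair differences all lay above the uninjured ones, which was so for 10.3% of all genes tested. The list median ran from -0.86 to -0.46 in uninjured and from 0.49 to 0.76 in injured animals. In HA IP 7 of the genes rose and 2 fell (11.8% and 17.7% of all genes tested). In flow-through 2 rose and 4 fell (12.6% and 14.3%). The summed level went from 1751 to 2268 CPM in uninjured HA IP to 6086 to 8664 CPM in injured HA IP, while flow-through held 3405 to 3886 and 4037 to 4420 CPM. Without the replicate block the count was 6.

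Mbp, myelin basic protein, had 806, 1120, 837 and 930 CPM in HA IP of uninjured animals 42, 79, 65 and 154 and 5520, 5230, 6860 and 3970 CPM in injured animals 9935, 9874, 9843 and 9596. In flow-through it had 1740, 2230, 2090 and 1790 CPM before and 3040, 2670, 3210 and 2970 CPM after injury. Flow-through was the higher fraction in all 4 uninjured animals and HA IP in all 4 injured ones. The rise was 2.55 in HA IP and 0.60 in flow-through, and the change was 1.93 ± 0.17 (adjusted p = 1.7e-05). Mag, a myelin protein that also stops axon growth, changed by 2.10 ± 0.34 (adjusted p = 0.00152), from pair differences of -1.14 to -0.47 to 0.71 to 2.34.

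Apod and Klk6 made the same crossing on a larger scale. Apod (chr16:31296192-31314808, minus strand) is a lipid-binding secreted protein of oligodendrocytes and stressed glia. Its HA IP level was 63.6, 88.1, 68.6 and 102 CPM in animals 42, 79, 65 and 154 and 590, 994, 646 and 587 CPM in animals 9935, 9874, 9843 and 9596. In flow-through it was 177 to 285 CPM before and 191 to 368 CPM after injury, with overlap. Apod rose by 3.13 in HA IP, its effect of 0.19 in flow-through was not called (adjusted p = 0.612), and its fraction difference changed by 2.95 ± 0.25 (adjusted p = 1.51e-05). Klk6, a secreted serine protease found in oligodendrocytes, changed by 3.37 ± 0.39 (adjusted p = 0.000136), with a rise of 3.18 in HA IP and a flow-through effect of -0.27 that was not called (adjusted p = 0.575).

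Genes of oligodendrocyte precursors went the same way. Of 10 tested, 4 (Olig1, Sox10, Gpr17 and Tnr) moved toward HA IP (40%, against 5.14% of all genes), with a list median of 1.09. Unlike the myelin genes, 6 of them were already higher in HA IP before injury, and 8 were after it (25.1% and 10.8% of all genes). Sox10, a transcription factor of the whole oligodendrocyte lineage, changed by 1.78 ± 0.36 (adjusted p = 0.00587; 0.26 on the thinned counts). Tnr, an extracellular matrix glycoprotein, had pair differences of -0.42 to 0.14 before and 1.81 to 2.05 after injury and changed by 2.17 ± 0.34 (adjusted p = 0.00124). Pdgfra, the receptor that marks precursors, changed by 1.14 and was not called (adjusted p = 0.11), but it was called with all 22 libraries (1.36, adjusted p = 0.0374) and without injured animal 9874 (1.53, adjusted p = 0.0408). The part of oligodendrocyte lineage cells in the HA IP values of other genes was not tested.

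**Figure D4:**
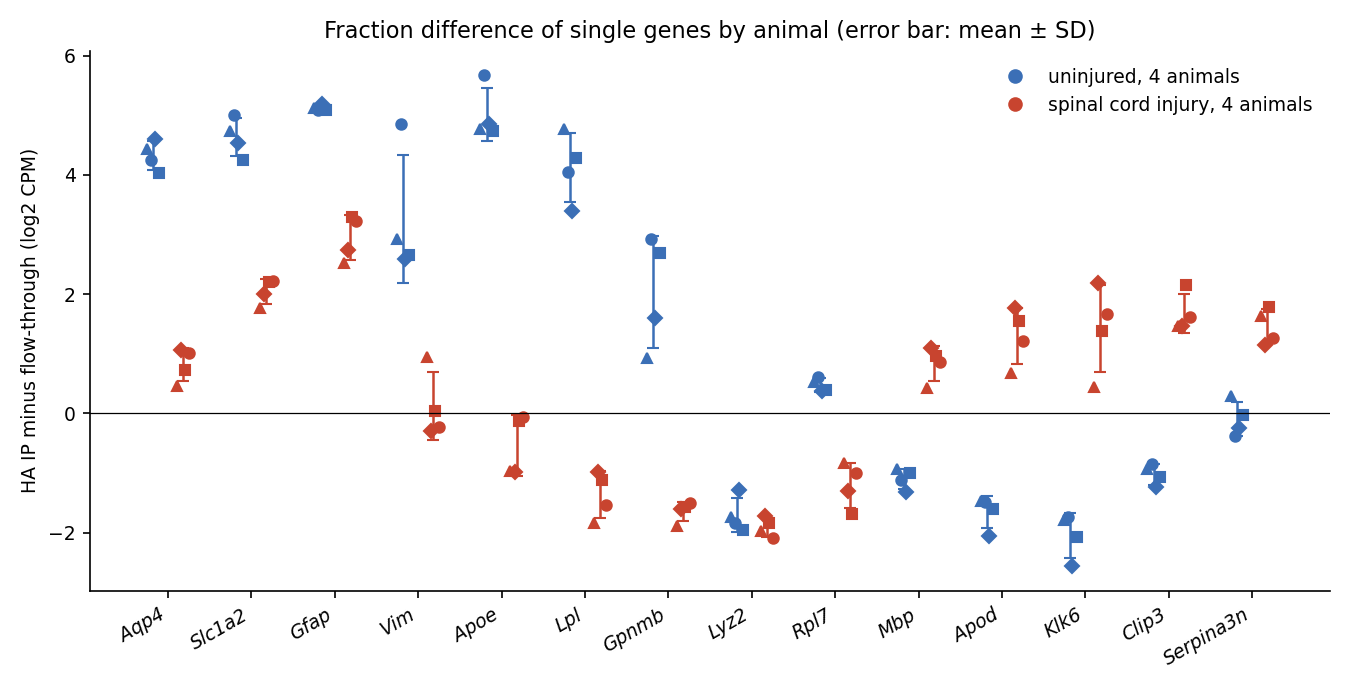
Fraction difference (HA IP minus flow-through, log2 CPM) of 14 genes, 1 symbol per animal, uninjured in blue and injured in red, with an error bar of the mean ± SD (n = 4 per group). The groups do not overlap for any of the genes shown except Lyz2, and Mbp, Apod, Klk6 and Clip3 go from below 0 to above 0.

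Neuronal markers fell in both fractions. Of 16 tested, 8 fell in HA IP and 10 in flow-through (17.7% and 14.3% of all genes did), with medians of -1.27 and -1.58. The estimated change of the fraction difference was above 0 for 14 of the 16, with a median of 0.51, and 2 (12.5%, against 5.14% of all genes), Tubb3 and Uchl1, moved toward HA IP. The Tubb3 call was lost without uninjured animal 65, 79 or 154 or injured animal 9843, by limma, without the replicate block and on the thinned counts (adjusted p = 0.0513 to 0.0948). Snap25, a protein of synaptic vesicle release, fell from 256 to 522 CPM to 22.7 to 52.7 CPM in HA IP and from 1540 to 2120 CPM to 78.0 to 173 CPM in flow-through. On the log2 scale it fell by 3.4 and 3.93, and the change of the fraction difference, 0.56 ± 0.29, was not called (95% confidence interval -0.0686 to 1.2, adjusted p = 0.244). Uchl1, a deubiquitinating enzyme abundant in neurons, changed by 1.31 ± 0.28 (adjusted p = 0.00792; 0.0894 without the replicate block). With all 22 libraries 6 neuronal genes were called toward HA IP.

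Other genes named by the size of their change toward HA IP were Clip3, Chgb, Gap43, Tet3 and Stk39. Clip3, a microtubule-associated linker protein, had pair differences of -0.84, -1.07, -1.24 and -0.94 in animals 42, 79, 65 and 154 and of 1.61, 2.16, 1.47 and 1.47 in animals 9935, 9874, 9843 and 9596. It rose by 1.32 in HA IP and fell by 1.44 in flow-through, a change of 2.70 ± 0.22 (adjusted p = 1.3e-05). Chgb, a secretory granule protein, changed by 2.70 ± 0.35 (adjusted p = 0.000305) and Gap43, a growth cone protein, by 2.75 ± 0.46 (adjusted p = 0.002). Both fell in flow-through, by 1.78 and 1.98, and Gap43 had no called effect in HA IP (0.61, adjusted p = 0.245). Tet3, an enzyme that oxidises methylated cytosine, changed by 3.24 ± 0.39 (adjusted p = 0.000188) and Stk39, a kinase that regulates ion cotransporters, by 2.71 ± 0.43 (adjusted p = 0.00135). Both rose in HA IP, by 2.39 and 1.98, with flow-through effects that were not called.

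Axons regrow or stop according to cues that astrocytes, oligodendrocytes and scar cells present. Of 31 axon growth inhibitory genes tested, 7 (Tnr, Mag, Sema3a, Sema6a, Cspg5, Efnb3 and Rtn4) moved toward HA IP and 3 (Ptprz1, Ntn1 and Nrp1) toward flow-through (22.6% and 9.68%, against 5.14% and 6.97% of all genes), with a median of 0.54. Of those 7, Mag, Tnr and Rtn4 are also known as products of the oligodendrocyte lineage. The 3 calls toward flow-through went to 0 when any 1 uninjured animal was left out, and the 7 toward HA IP to 4 without animal 65 or 79. Of 33 permissive genes 3 (Sdc4, Col4a1 and Mdk) moved toward flow-through and 1 (Matn2) toward HA IP (9.09% and 3.03%), near the shares of all genes. The Col4a1 call was lost without uninjured animal 65 or 79 or injured animal 9596, by limma and without the replicate block (adjusted p = 0.0501 to 0.72). Sdc4, a cell surface heparan sulphate proteoglycan, changed by -2.50 ± 0.32 (adjusted p = 0.000293), with no called effect in HA IP (-0.03, adjusted p = 0.947) and a rise of 2.28 in flow-through. Of the 7 chondroitin sulphate proteoglycan cores, Cspg5 was called toward HA IP and Ptprz1 toward flow-through. That is 14.3% each way, against 5.14% and 6.97% of all genes, with a list median of -0.10. The Ptprz1 call was lost when any 1 uninjured animal or injured animal 9843 or 9596 was left out. It was also lost by limma, with all 22 libraries, on the thinned counts and without the replicate block or ribosomal rows (adjusted p = 0.0525 to 0.249 over all these). The Cspg5 call was lost without uninjured animal 79, 65 or 154 or injured animal 9843, by limma, without the replicate block and on the thinned counts (adjusted p = 0.0545 to 0.223).

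Ribosomal protein genes moved toward flow-through as a body. All 26 tested had a change below 0, with a median of -1.01. The change was called lower for 19 and higher for none, against 6.97% and 5.14% of all genes tested. In 25 of the 26 the 4 injured pair differences lay below the 4 uninjured ones, which was so for 9.3% of all genes tested. In flow-through 20 rose and none fell (12.6% and 14.3% of all genes tested), while in HA IP 8 rose and 2 fell (11.8% and 17.7%). The list median was -0.36 to 0.09 in uninjured and -1.24 to -1.08 in injured animals. Rpl7, a protein of the large subunit, had 35.0, 60.4, 55.6 and 47.3 CPM in HA IP of animals 42, 79, 65 and 154 and 23, 46.0, 42.8 and 32.8 CPM in their flow-through. In animals 9935, 9874, 9843 and 9596 it had 78.3, 50.6, 85.1 and 90.0 CPM in HA IP and 157, 163, 210 and 160 CPM in flow-through. HA IP was the higher fraction in each uninjured animal and the lower in each injured one, a change of -1.68 ± 0.23 (adjusted p = 0.00056). The count of 19 fell to 8 without animal 42, 11 without animal 154 and 5 without the replicate block, and it was 16 with all 22 libraries. These genes have many near-identical pseudogenes, and the rule for shared reads is not given in the sources used here.

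Metabolic genes of astrocytes also moved toward flow-through. Of 21 genes of fatty acid and glutathione metabolism, 10 moved toward flow-through and 1 toward HA IP (47.6% and 4.76%, against 6.97% and 5.14% of all genes), with a median of -1.21. In HA IP 12 of them fell and 1 rose, against 17.7% and 11.8% of all genes. In flow-through 3 rose and 7 fell (12.6% and 14.3% of all genes), with a median injury effect of -0.44. The resting astrocyte genes differed there, with 10 that rose and 4 that fell and a median of 0.34. Acadm, a mitochondrial enzyme of fatty acid oxidation, fell by 1.59 in HA IP and rose by 1.25 in flow-through, a change of -2.86 ± 0.42 (adjusted p = 0.000808). Mgst1, a membrane glutathione transferase, changed by -4.00 ± 0.79 (adjusted p = 0.00523). Fasn, fatty acid synthase, was the exception. Its pair differences were 0.07 to 0.43 before and 1.27 to 2.09 after injury, a change of 1.41 ± 0.25 (adjusted p = 0.00304), with a fall of 1.30 in flow-through and no called effect in HA IP (0.11, adjusted p = 0.779).

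Cholesterol synthesis genes fell in both fractions, 13 of 18 in HA IP and 12 in flow-through, against 17.7% and 14.3% of all genes. Their fraction difference was called lower for 2 (11.1%: Cyp51 and Mvd) and higher for Srebf2 (5.56%), near the 6.97% and 5.14% of all genes, with a median of -0.05. The call of Mvd, a decarboxylase of the pathway, was lost without uninjured animal 42, 65 or 154 or injured animal 9874 or 9843, and without the replicate block (adjusted p = 0.0554 to 0.0833). The call of Srebf2, a transcription factor of sterol genes, was lost by limma, with no filter, without the block, on the thinned counts (adjusted p = 0.353) and without uninjured animal 79, 65 or 154 or injured animal 9874 or 9843. Cyp51, lanosterol demethylase, fell by 2.55 in HA IP with a flow-through effect of -0.44 that was not called (adjusted p = 0.401), a change of -2.10 ± 0.40 (adjusted p = 0.00408). Genes of the mitochondrial respiratory chain also fell in both, 10 of 20 in HA IP and 12 in flow-through (17.7% and 14.3% of all genes did). Cox7c alone was called for the fraction difference, toward HA IP (5%, against 5.14% of all genes). Its call was lost without uninjured animal 79, 65 or 154, by limma, with no filter and without the replicate block. The same held on counts thinned without animal 9935 (adjusted p = 0.0537 to 0.14 over these alternatives).

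Other genes named by the size of their change toward flow-through were Cd63, Itga6, Rin2 and Pbxip1, and Cxcr4 was named for a fraction difference that changed sign. Cd63, a membrane protein of endosomes and lysosomes, had 69.0 to 94.6 CPM in uninjured and 71.4 to 120 CPM in injured HA IP, and 5.81 to 9.55 and 64.7 to 159 CPM in flow-through. Its change was -3.61 ± 0.30 (adjusted p = 1.3e-05). Itga6, a laminin receptor subunit, changed by -3.73 ± 0.45 (adjusted p = 0.000201) and Rin2, a regulator of endosomal traffic, by -3.4 ± 0.34 (adjusted p = 4.71e-05). Both had no called effect in HA IP (-0.17, adjusted p = 0.75; -0.24, adjusted p = 0.642) and rose in flow-through, by 3.58 and 3.05. Pbxip1, a binding partner of homeobox proteins, rose in both, by 0.81 and 4.21. Cxcr4, a chemokine receptor of many immune cells, changed by -5.68 ± 0.60 (adjusted p = 8.37e-05) on injured flow-through counts of 1 to 35. It rose by 2.37 in HA IP (adjusted p = 0.00934) and 8.23 in flow-through.

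**Figure D5:**
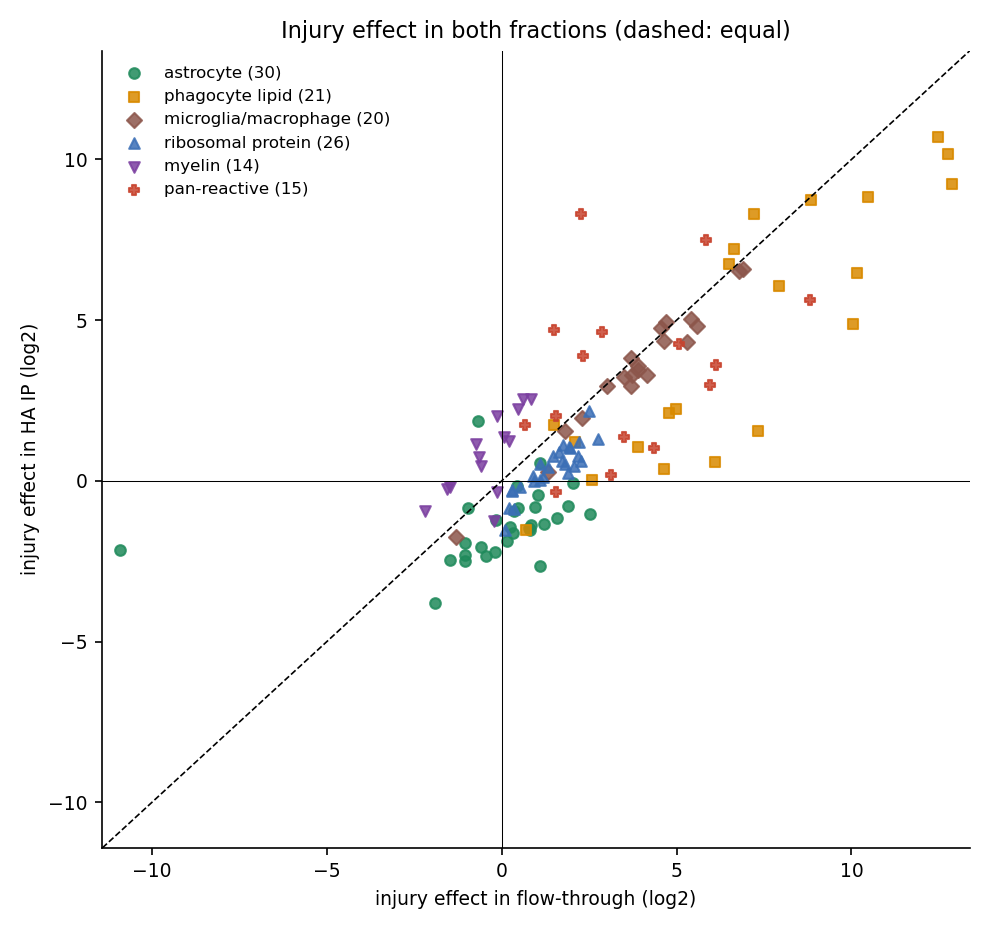
Injury effect (injured against uninjured, log2) of the tested members of 6 lists, with the flow-through on the x axis and HA IP on the y axis; the dashed line marks equal effects. Microglia and macrophage markers lie near the line, 17 of 20 with a change of the fraction difference below 0, astrocyte, phagocyte lipid and ribosomal protein genes mostly below it and myelin genes mostly above it; the astrocyte gene near x = -10.9 is Hapln1, whose fitted value is no estimate of size.

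Of 12 fibroblast and pericyte genes 3 (Col1a2, Pdgfrb and Fbln1) moved toward flow-through (25%, against 6.97% of all genes). The call of Fbln1, a matrix protein, was lost without injured animal 9596 (-1.95, adjusted p = 0.323) or uninjured animal 65 (adjusted p = 0.0558), by limma (adjusted p = 0.095) and without the replicate block (adjusted p = 0.0585). With injury 7 of the 12 genes rose in HA IP and 8 in flow-through (11.8% and 12.6% of all genes did), with medians of 2.75 and 2.86. For the fraction difference the list median was -0.22, with 5 estimates above 0 and 7 below. The summed level of the 12 genes went from 17.5 to 24.2 CPM in uninjured HA IP to 31.2 to 98.1 CPM in injured HA IP. In flow-through it went from 5.48 to 8.98 CPM to 76.1 to 149.8 CPM. Pdgfrb, the growth factor receptor of pericytes, changed by -4.49 ± 0.63 (adjusted p = 0.00061) on 1 to 7 injured flow-through counts per library. No gene was called among 7 Schwann cell, 10 ependymal or 12 cell cycle genes tested, 3 tested of 10 endothelial genes or the 1 tested lymphocyte gene, and none of 11 blood genes had the counts to be tested. Of 12 immediate early genes 10 had an estimated change above 0, with a median of 1.25, and in 5 the injured pair differences all lay above the uninjured ones, against 10.3% of all genes. The list median ran from -1.08 to -0.86 in uninjured and from -0.28 to 0.19 in injured animals. It was 0 in injured animal 9874, where a single flow-through count was worth 0.654 CPM. How far low counts set these medians was not tested. Arc was called toward HA IP and had 0 counts in all 4 injured flow-through libraries, while Atf3 was called toward flow-through. The Atf3 call was lost by limma (-2.01, adjusted p = 0.144), without the replicate block (adjusted p = 0.27), on counts thinned without animal 9935 (adjusted p = 0.56), and without uninjured animal 42, 65 or 154 or injured animal 9874, 9843 or 9596. Over all genes 55 calls rested on 0 counts in those 4 libraries.

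Values from the injured STAT3-LoxP animals stand beside these, from a fit of all 22 libraries in which the 3 groups share the uninjured animals, and the genotypes were not tested against each other. The fraction difference of Serpina3n was -0.19 in uninjured, 1.59 in wild-type injured and -0.34 in STAT3 KO injured animals. For Apod the values were -1.75, 1.43 and -0.05, and for Aqp4 4.23, 0.94 and 2.31. Apoe had 4.91, -0.41 and 0.01, Mbp -1.19, 0.97 and 0.49, and Lyz2 -1.83, -1.77 and -1.91. The Rn45s share of the STAT3 KO libraries was 49.95% to 89.2%, against 89.0% to 96.2% in the wild-type injured ones.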

How the data were processed

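RNA of the HA IP and of the flow-through was measured in 8 wild-type mice by paired-end sequencing. Per the labels' protocols, each library began with 5 ng of RNA that the NuGEN Ovation V2 system turned into cDNA, of which 300 ng was fragmented and amplified over 10 cycles. CASAVA 1.8.2, edgeR and mm10 appear in the submitters' processing notes without a stated role. Which aligner, counter, annotation or strand setting was used is not given in the sources used here, so reads of a gene and its antisense partner cannot be told apart.

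The authors deposited raw counts for 24060 gene rows, per the file headers, and 4 of their tables were used and joined by row. The 16 library columns that occur in more than 1 table had 0 differing counts. Of 27 rows with a date in place of a symbol 25 were restored, and 130 other per-sample columns were not used.

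Counts were scaled by TMM and filtered by filterByExpr in edgeR 4.0.16 (R 4.3.3), leaving 14401 genes, and tested by the quasi-likelihood test, two-sided, called at a Benjamini-Hochberg adjusted p under 0.05. The model of the fraction difference had the animal as a block, fraction, and fraction by injury (6 residual degrees of freedom). Injury effects within a fraction came from a fit of group means. Log2 CPM per library used a prior count of 2. The labels give both fractions of an animal the same number, and the design text says they come from the same tissue. Deviations of the fractions from their group means correlated at 0.296 to 0.857 within animals over 708 genes. Among the flow-through libraries of its own group, each HA IP library correlated best with that of its own animal. Nothing in the labels says how libraries were batched. A single gene's exact permutation test over the 8 animals cannot give a p under 0.0286, which any gene without overlap between the groups reaches.

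The named genes (112) were up to 12 per direction with the largest called change, no overlap between groups and a log2 CPM averaging 3 or more, leaving out predicted genes, small RNAs and pseudogenes. To these were added up to 2 called members per direction of 29 gene lists (or the one with the smallest p), up to 5 per direction that changed side, up to 6 that rose and 6 that fell in both fractions (mean log2 CPM of at least 5), and fixed markers. Not every named gene is described, and the single values of some are not reported here. The animals, lists and rules were chosen with earlier results of these data known. Scripts were tested on simulated data. Alternatives were no replicate block, all 22 libraries, RLE scaling, DESeq2 1.42.0, limma 3.58.1 on the pair differences, other filters (none, or a mean of at least 50 counts), no ribosomal rows, thinned counts and each animal left out.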

Additional observations from a re-analysis of the deposited data

Results flagged for a closer look

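The fraction difference differed between injured and uninjured animals, by the interaction term, for 1744 genes. Within groups of 4 animals, 230 sets of values were screened for an animal that stood apart. They were fraction differences of the genes followed below and of list medians, Rn45s shares, and counts outside the ribosomal rows. The animal's gap to the nearest of the others, over the group's range, had to pass Dixon's 95% critical value. Chance gives such a gap in about 1 of 20 groups. Such an animal was found in 13, of which 4 were in injured animal 9935 and 4 in uninjured animal 42.

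Uninjured animal 42 stood above the other 3 for Apoe at 5.67 (others 4.73 to 4.86), H2-K1 at 4.84 (2.48 to 2.83) and Vim at 4.85 (2.59 to 2.93), and below them for Timp1 at -1.21 (3.61 to 4.25). In uninjured animal 65 Laptm5 was at -0.83 (others -1.85 to -1.69), and in uninjured animal 154 Tet3 was at -1.02 (others -1.52 to -1.47).

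Injured animal 9935 stood above the others for Cd109 at 6.66 (-0.51 to 0.23), Col4a1 at 5.35 (-2.18 to -1.20) and S1pr3 at 8.03 (1.61 to 2.64), and its flow-through library, the shallowest, held 0 counts of each of these genes. The median of the oligodendrocyte precursor list was 2.99 in that animal (others 1.86 to 2.05). In injured animal 9843 Bst2 was at 0.41 (others -0.10 to -0.04), and in injured animal 9596 Cxcl10 was at 0.13 (others 1.59 to 1.86). The median of the cholesterol synthesis list was 1.58 in injured animal 9874 (others 0.995 to 1.05).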

How the results depend on the processing

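The calls for the injury change of the fraction difference (1744, 740 toward HA IP and 1004 toward flow-through) became 566 (203 and 363) without the replicate block, 565 of them shared, 1008 (447 and 561) by limma on the pair differences, 2732 (1164 and 1568) by DESeq2, and 1158 toward HA IP with all 22 libraries. On thinned counts there were 445 (178 and 267), and 984 (392 and 592) when animal 9935 was left out and the rest thinned less, an alternative added after seeing the data. Leaving out each animal in turn gave 886 to 1943 calls (336 to 821 toward HA IP, 550 to 1131 toward flow-through), fewest without uninjured animals. The uninjured fraction difference was called for 3320 genes (1901 higher, 1419 lower) without the replicate block, 1393 (731 and 662) on thinned counts and 3051 (1591 and 1460) on those without animal 9935. The injured fraction difference was called for 1339 (916 and 423), 962 (507 and 455) and 1693 (858 and 835) in the same order, and DESeq2 called 2273 lower. RLE scaling, no filter, the stricter filter and leaving out the ribosomal rows (1845 calls, 51% toward HA IP) kept the total within 1.5 times. The median change of all genes was 0.30 by limma and -0.30 by DESeq2.

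The change of Lyz2 was 0.0549 with all 22 libraries, and that of Timp1 was -2.06 by DESeq2 and -0.32 by limma. When animals were left out, Timp1 ran from -5.05 (without animal 42) to 1.71 and Stat3 from -0.21 to 0.58. None of these was called. Of 85 genes followed, where an alternative tested them, 24 calls were lost without the replicate block, 21 by limma, 1 by DESeq2, 20 without animal 65, 19 without 154, 15 without 79 and 13 on the thinned counts, and the cause was not tested. Depth limits the injured flow-through most.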

Other observations

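The following gene groups were put together after their values were seen, so they are descriptions without a test of the group. Of 46 lysosomal proteins tested, 28 moved toward flow-through and none toward HA IP, against 6.97% and 5.14% of all genes tested, with a median change of -1.24. Their median fraction difference was 0.51 in uninjured and -0.97 in injured animals, and their median injury effect was 0.69 in HA IP and 1.96 in flow-through. Among them the proteases Ctsd and Ctsl changed by -1.95 and -3.18, the membrane proteins Lamp1 and Lamp2 by -1.63 and -1.97, and Grn, the progranulin gene, by -2.06.

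Tubulins, kinesins and microtubule-associated proteins went the other way. Of 34 tested, 14 moved toward HA IP and none toward flow-through, against 5.14% and 6.97% of all genes, with a median of 0.84. Their median injury effect was 0.30 in HA IP and -1.04 in flow-through. Map1a and Map1b, which bind axonal and dendritic microtubules, changed by 1.59 and 1.75, the transport motor Kif1a by 1.42 and the oligodendrocyte tubulin Tubb4a by 2.06.

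Over all cytosolic ribosomal proteins found by name, 82 of 83 had a change below 0. Of these genes 47 were called toward flow-through and 1, Rps4l, toward HA IP, against 6.97% and 5.14% of all genes. Of 18 translation factors and linked genes 10 moved toward flow-through and none toward HA IP, against 6.97% and 5.14% of all genes, among them Eef1a1 (-1.29) and Pabpc1 (-1.24). Of 13 long noncoding RNAs, which are not translated, 1 was called, toward flow-through, where 6.97% of all genes were called, and their median fraction difference was -1.18 before and -1.09 after injury.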
